A study of Mus musculus with 10 samples.

Results

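Imprinted genes were followed in mouse back-skin epidermis that had lost either Polycomb repressive complex 2 or Polycomb repressive complex 1. The members were 40 protein-coding genes with known mouse imprinting, found by gene symbol in the deposited tables. Of these, 39 were among the 18502 genes of the Eed table and 39 among the 18344 genes of the Ring1 table. Counts of Dio3 are not analysed here, and it enters only the description of promoter windows. By general knowledge of mouse imprinting, 17 members on the list are expressed from the paternal allele and 19 from the maternal allele, while for 4 (Gnas, Inpp5f, Ddc and Begain) the parental allele depends on the transcript or is less settled. Whole-gene read counts do not separate the parental alleles, so every value below is the sum over both.

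The 10 RNA-seq libraries came from interfollicular epidermis of 71-day-old mice, purified by flow cytometry as EpCAM-positive, Sca1-positive cells with high α6-integrin. There were 3 Eed KO libraries (genotype Eed -/-), 3 Eed Control libraries, 2 Ring1a/b 2KO libraries (genotype Ring1a-/- Ring1b-/-) and 2 Ring1 Control libraries, and each knockout had controls of its own. Recombination was induced by 4-hydroxytamoxifen in ethanol at 20 mg/ml, spread at 100 µl a day on shaved skin for 4 days from day 50; one shared protocol describes this for all samples. No source used here gives the Cre driver, the control alleles, or whether a library is 1 mouse or several. The p-values therefore measure only the spread between these samples.

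Imprinted genes are expressed mainly from one parental allele, because DNA methylation laid down in the egg or sperm marks control regions that govern clusters of neighbouring genes. Many act on growth: paternally expressed Igf2 promotes it, and maternally expressed Igf2r and Grb10 restrain the same pathway. Eed is a core subunit of Polycomb repressive complex 2, which methylates histone H3, and Ring1a and Ring1b are the ubiquitin ligases of Polycomb repressive complex 1. In mouse embryos and placenta some imprinted domains are known to need Polycomb proteins as well as DNA methylation.

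In the Ring1a/b 2KO libraries 4 members rose in the authors' deposited table, namely Igf2, Plagl1, Peg3 and Grb10, and in the Eed KO libraries 1 member rose there, Igf2. No member fell in either. A second test of the same values, limma on log2 values, called none of them. The promoter windows of these 4 genes are shown because they belong to the members that passed a test. Each is 300 bases of RefSeq sequence on GRCm38.p6, from 250 bases before a transcription start to 50 after it, written 5′ to 3′ on the gene's own strand, with every CpG in capitals since imprint marks are placed on CpG sites. Of the 4 windows of Igf2, the one with the most CpG is printed, and of the 2 of Grb10 likewise.
Igf2 (chr7:142658755-142659054, minus strand): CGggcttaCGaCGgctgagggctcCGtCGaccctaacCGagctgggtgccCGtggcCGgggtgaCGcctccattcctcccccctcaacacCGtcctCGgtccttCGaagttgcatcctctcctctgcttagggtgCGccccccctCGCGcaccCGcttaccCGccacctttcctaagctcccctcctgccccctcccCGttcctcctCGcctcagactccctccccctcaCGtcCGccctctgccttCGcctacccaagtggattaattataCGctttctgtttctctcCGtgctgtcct
Plagl1 (chr10:13090582-13090881, plus strand): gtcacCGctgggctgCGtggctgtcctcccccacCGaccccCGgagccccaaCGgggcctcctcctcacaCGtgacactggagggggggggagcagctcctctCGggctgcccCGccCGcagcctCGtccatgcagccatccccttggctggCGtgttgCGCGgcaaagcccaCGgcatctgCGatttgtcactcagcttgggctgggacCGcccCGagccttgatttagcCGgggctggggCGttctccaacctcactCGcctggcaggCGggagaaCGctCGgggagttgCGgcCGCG
Peg3 (chr7:6730370-6730669, minus strand): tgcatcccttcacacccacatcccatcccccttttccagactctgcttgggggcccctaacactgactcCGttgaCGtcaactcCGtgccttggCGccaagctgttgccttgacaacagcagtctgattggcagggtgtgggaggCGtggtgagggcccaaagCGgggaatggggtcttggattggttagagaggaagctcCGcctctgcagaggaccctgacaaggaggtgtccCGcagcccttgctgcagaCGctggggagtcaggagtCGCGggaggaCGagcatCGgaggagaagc
Grb10 (chr11:12037371-12037670, minus strand): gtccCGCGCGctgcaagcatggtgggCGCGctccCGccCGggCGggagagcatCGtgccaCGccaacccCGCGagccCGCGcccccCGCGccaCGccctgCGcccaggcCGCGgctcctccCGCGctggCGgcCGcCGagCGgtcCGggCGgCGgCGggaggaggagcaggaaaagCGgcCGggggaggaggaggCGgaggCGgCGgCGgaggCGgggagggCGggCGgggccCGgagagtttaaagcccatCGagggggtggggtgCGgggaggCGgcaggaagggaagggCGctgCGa

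These windows held 24 CpG for Igf2, 26 for Plagl1, 13 for Peg3 and 45 for Grb10. Over 53 windows of 33 members the median was 17 CpG, against 7 over all 32851 windows of the genome, whose quartiles were 3 and 20. The member windows leave out chromosome 18, where Impact lies, while the windows of the genome keep it. The hexamer TGCCGC, the letters recognised by the imprint-protecting zinc finger protein ZFP57 when methylated, was searched on both strands and contains 1 CpG itself. It occurred in 20.8% of member windows and 11.6% of all windows, and among the printed windows in those of Plagl1 and Grb10, 1 match each. The Peg3 window overlaps that of its neighbour Usp29, which is transcribed the other way, by 263 bases. These counts describe letters and carry no test.

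Values are the authors' normalised read counts, and the Eed and Ring1 tables were normalised separately, so levels are compared only within a table. Recovered read totals were 31699979 to 40701183 in Eed KO, 32667439 to 39006853 in Eed Control, 19814853 and 6237389 in Ring1a/b 2KO, and 25158144 and 7162907 in Ring1 Control. In both Ring1 groups replicate 2 was the shallow library, and the mitochondrial share reached 12.7% in Ring1a/b 2KO replicate 2, against 7.28% at most in Ring1 Control; it was 2.85% to 3.58% in Eed KO, against 2.34% to 2.81% in Eed Control. The sorted cells carried high counts of Krt5, Krt14 and the other basal keratinocyte markers in every library. Krt1 and Krt10, markers of differentiated keratinocytes, were also high. They averaged 86345 and 171830 in Eed Control, and 11907 and 14747 in Ring1 Control. The counts of Eed, Ring1 and Rnf2 (the gene of Ring1b) were not called in either comparison by limma or in the authors' deposited table; they sum whole transcripts, so they do not check a deletion of some exons. In bulk samples, fewer cells of a type and less RNA per cell cannot be told apart.

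Igf2, the insulin-like growth factor that drives fetal growth, had normalised counts of 874, 152 and 79.7 in Eed KO, against 60.4, 47.7 and 24.3 in Eed Control. All 3 Eed KO libraries lay above all 3 controls, but replicate 1 was far above the other two. The ratio of group means was 8.36, with 369 ± 439 in Eed KO and 44.1 ± 18.3 in Eed Control (SD, n = 3 each). In the authors' deposited table Igf2 rose, with a log2 fold change of 3.06 and an adjusted p of 0.00842. The limma estimate was 2.39 on the log2 scale (SE 0.79; adjusted p = 0.897). In DESeq2 refits the call was lost without Eed KO replicate 1 (log2 fold change 1.39), without Eed Control replicate 2 (3.13, adjusted p = 0.334) and without Eed Control replicate 3 (2.76, adjusted p = 0.105).

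In the Ring1 table Igf2 reached 1668 and 4827 normalised counts in Ring1a/b 2KO, against 735 and 518 in Ring1 Control. The groups did not overlap and the ratio of means was 5.18, but the Ring1a/b 2KO values differed widely from each other (3247 ± 2233, against 627 ± 153 in Ring1 Control; SD, n = 2 each). Igf2 rose in the authors' deposited table (log2 fold change 2.37, adjusted p = 0.000101). By limma it had a log2 fold change of 2.20 (SE 0.60; adjusted p = 0.413). The annotation places Igf2 at chr7:142650766-142666816 (GRCm38, minus strand), where its exons overlap those of the read-through gene Gm49394, so reads of the pair cannot be set apart.

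**Figure D1:**
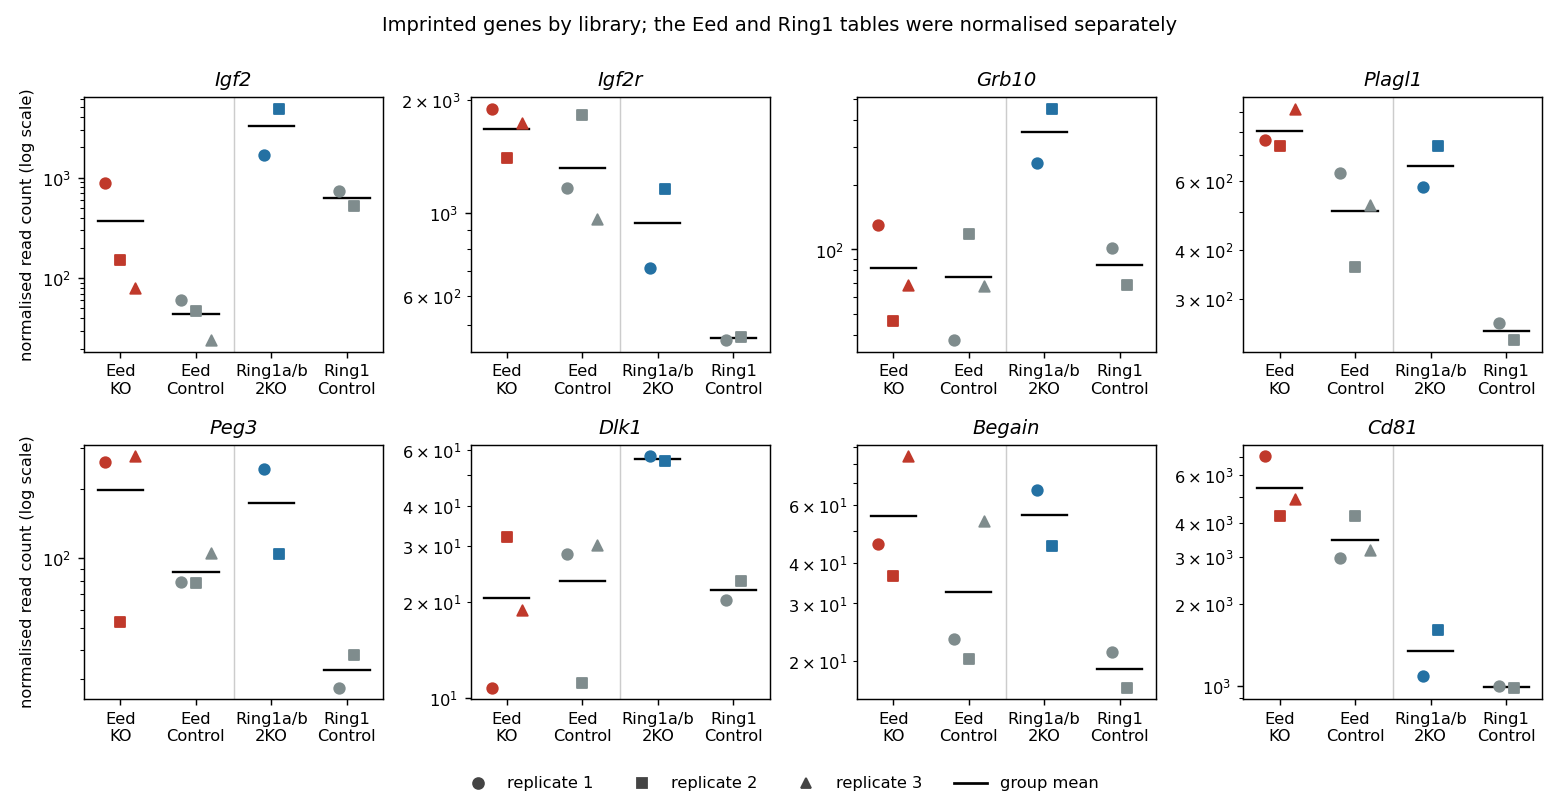
Normalised read counts (log axis) of 8 imprinted genes in each library, as points, with group means as lines; Eed KO stands left of Eed Control and Ring1a/b 2KO left of Ring1 Control. For Igf2 and Plagl1 every knockout point lies above every control point in both tables, while for Grb10 and Dlk1 this holds in the Ring1 table and the Eed groups overlap.

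Plagl1 encodes a zinc finger transcription factor that restrains the cell cycle and is known in mouse embryos to act on other imprinted genes. It had 763, 736 and 918 normalised counts in Eed KO, against 630, 363 and 521 in Eed Control. In the Ring1 table it had 580 and 735 in Ring1a/b 2KO, against 261 and 236 in Ring1 Control. The groups did not overlap in either table. The ratios of means were 1.60 for Eed KO and 2.64 for Ring1a/b 2KO. Plagl1 rose in Ring1a/b 2KO in the authors' deposited table (log2 fold change 1.40, adjusted p = 0.00129). It was not called there in Eed KO (0.67, adjusted p = 0.499). By limma the log2 fold changes were 0.70 (SE 0.26; adjusted p = 0.934) in Eed KO and 1.39 (SE 0.24; adjusted p = 0.131) in Ring1a/b 2KO.

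Peg3, a paternally expressed zinc finger gene, had 263, 52.9 and 277 normalised counts in Eed KO, against 78.9, 78.1 and 105 in Eed Control. Eed KO replicate 2 lay below all controls while the other two lay above them. In the Ring1 table Peg3 had 244 and 104 in Ring1a/b 2KO, against 27.6 and 38.2 in Ring1 Control, a ratio of means of 5.28 with no overlap. It rose in the authors' deposited table in Ring1a/b 2KO (log2 fold change 2.44, adjusted p = 0.00452) and was not called there in Eed KO (1.18, adjusted p = 0.730). The limma values were 2.26 (SE 0.52; adjusted p = 0.207) in Ring1a/b 2KO and 0.85 (SE 0.61; adjusted p = 0.989) in Eed KO. In DESeq2 refits Peg3 gained a call in Eed KO without Eed KO replicate 2.

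Grb10, a maternally expressed adaptor that dampens insulin and insulin-like growth factor signalling, had 252 and 450 normalised counts in Ring1a/b 2KO, against 102 and 68.1 in Ring1 Control. The groups did not overlap, and the ratio of means was 4.13. In Eed KO its counts were 129, 46.7 and 68.6, against 38.0, 118 and 67.8 in Eed Control, and the groups overlapped throughout. Grb10 rose in Ring1a/b 2KO in the authors' deposited table (log2 fold change 2.02, adjusted p = 0.00136). By limma the values were 2.00 (SE 0.39; adjusted p = 0.153) in Ring1a/b 2KO and 0.15 (SE 0.55; adjusted p = 0.993) in Eed KO. Its limma effect was lower in Eed KO than in Ring1a/b 2KO by a log2 difference of -1.85 (SE 0.78), which had an unadjusted p of 0.0361 and an adjusted p of 1.00 by limma. The sign in Eed KO turned negative without Eed Control replicate 1 or Eed KO replicate 1.

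Leaving out a Ring1 library leaves 1 library in its group, which is then assumed to vary like the other group, so these refits show only how much a call rests on single libraries. Of the 4 calls in Ring1a/b 2KO, DESeq2 refits kept 1, that of Igf2, without Ring1 Control replicate 1 and also without Ring1 Control replicate 2. Without Ring1a/b 2KO replicate 2 the calls of Igf2 and Peg3 were kept. Without Ring1a/b 2KO replicate 1 the calls were Grb10, Igf2, Igf2r and Plagl1, while 5.23% of all genes were then called. All log2 fold changes of the called members stayed positive in these refits.

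**Figure D2:**
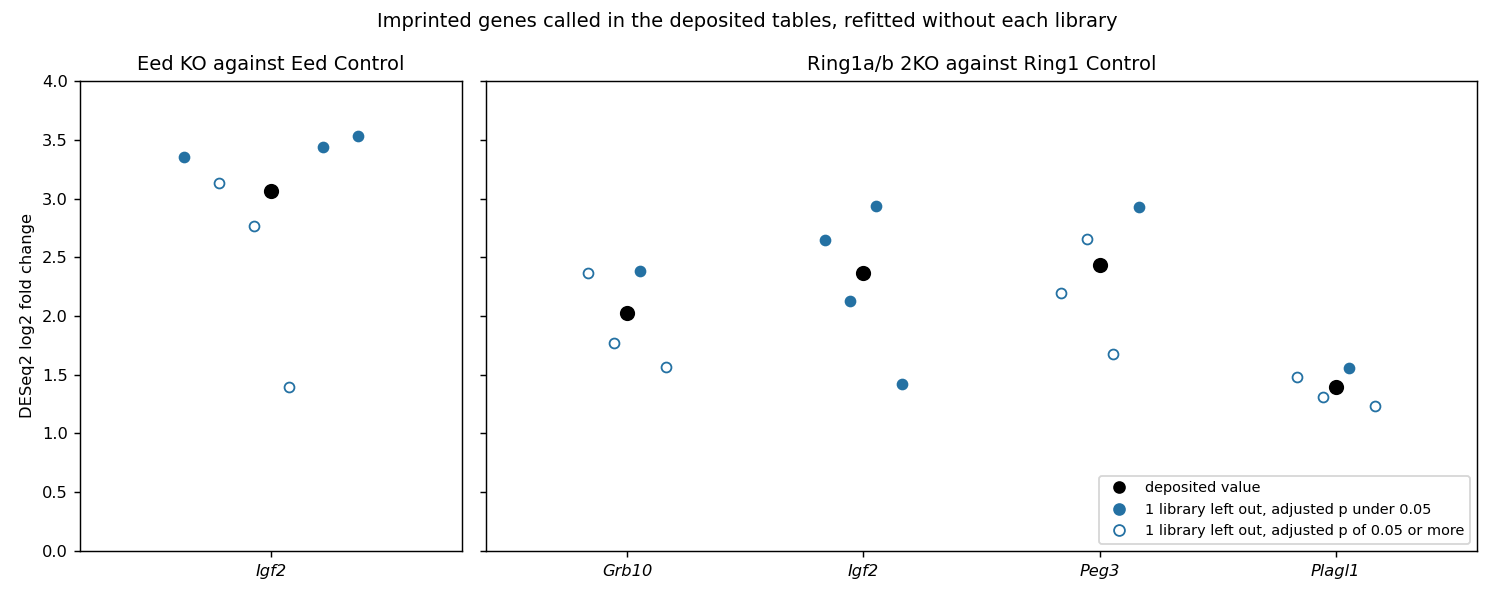
DESeq2 log2 fold changes of the members called in the authors' deposited table (black points, Igf2 for Eed KO; Grb10, Igf2, Peg3 and Plagl1 for Ring1a/b 2KO) and after leaving out 1 library at a time (filled where the adjusted p was under 0.05, open otherwise). Every refitted value is above 0; for Igf2 in Eed KO it drops to 1.39 without Eed KO replicate 1.

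Apart from Igf2 and Grb10, no growth signal was called in either comparison. Igf2r, the receptor that carries Igf2 to lysosomes, had 713 and 1162 normalised counts in Ring1a/b 2KO, against 456 and 465 in Ring1 Control. The groups did not overlap, with a ratio of means of 2.03, and limma gave a log2 fold change of 0.98 (SE 0.26; adjusted p = 0.276). In Eed KO Igf2r had 1900, 1402 and 1736, against 1163, 1831 and 961 in Eed Control, and the groups overlapped. Dlk1, a Notch-like ligand of stem and precursor cells, had 57.5 and 55.6 in Ring1a/b 2KO, against 20.3 and 23.3 in Ring1 Control (ratio of means 2.59; limma log2 fold change 1.34, SE 0.55, adjusted p = 0.448). In Eed KO it had 10.8, 32.2 and 18.9, against 28.2, 11.2 and 30.3 in Eed Control, with overlap. Phlda2, a regulator of placental growth, had 12.4 and 12.6 in Ring1a/b 2KO, against 7.81 and 1.66 in Ring1 Control. Its Eed groups overlapped, at 176, 30.1 and 38.7 in Eed KO and 47.7, 2.03 and 43.5 in Eed Control.

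Gnas, which encodes the stimulatory G protein alpha subunit among other products, had 14676, 12089 and 8575 normalised counts in Eed KO, against 8440, 13410 and 9138 in Eed Control. In the Ring1 table it had 3189 and 2494 in Ring1a/b 2KO, against 3555 and 3172 in Ring1 Control. Both pairs of groups overlapped, and limma gave log2 fold changes of 0.19 and -0.25 for Eed KO and Ring1a/b 2KO. Rasgrf1 and Ddc, the other members counted with the growth signals, also overlapped in both tables. Ddc encodes an enzyme rather than a growth signal. Over this role, with Ddc included, 6 of 8 members tested had a positive limma value in each table. Over all genes 51.2% were positive in Eed KO and 50% in Ring1a/b 2KO. The role medians were 0.17 in Eed KO and 1.16 in Ring1a/b 2KO. Phlda2 passed the Ring1 filter only through the knockout group, so these counts and medians are a description only.

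Among transcription factors, Ascl2, a helix-loop-helix factor of placenta and stem cells, had values in the other direction from Plagl1 and Peg3 without passing a test. It had 433, 733 and 469 normalised counts in Eed KO, against 620, 1259 and 576 in Eed Control. In Ring1a/b 2KO it had 150 and 48.4, against 205 and 145 in Ring1 Control. The groups overlapped in both tables, and limma gave log2 fold changes of -0.53 (SE 0.34; adjusted p = 0.989) and -1.003 (SE 0.55; adjusted p = 0.573). Klf14 and Zim1 overlapped in both tables too.

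Membrane proteins and transporters included Cd81, a tetraspanin that organises other proteins in the plasma membrane. It had 7059, 4241 and 4883 normalised counts in Eed KO, against 2973, 4232 and 3174 in Eed Control. The groups just failed to overlap, since the lowest Eed KO value and the highest Eed Control value almost coincided. By limma it had a log2 fold change of 0.62 (SE 0.23; unadjusted p = 0.0248 and adjusted p = 0.959 in a limma fit over all genes). In Ring1a/b 2KO Cd81 had 1087 and 1608, against 996 and 984 in Ring1 Control (limma 0.42, SE 0.23, adjusted p = 0.575). Slc22a18, an organic cation transporter family member, had 375, 359 and 250 in Eed KO, against 261, 410 and 245 in Eed Control. It had 109 and 86.1 in Ring1a/b 2KO, against 83.3 and 86.4 in Ring1 Control, so its groups overlapped in both tables. Nnat and Kcnk9 overlapped as well.

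No gene of RNA handling or translation passed a test. Snrpn, a component of the splicing machinery, had 69.5, 24.9 and 30.0 normalised counts in Eed KO, against 16.6, 17.2 and 20.2 in Eed Control, with no overlap (limma log2 fold change 1.02, SE 0.56, adjusted p = 0.989). In the Ring1 table it lay under the filter on low values, with 4.33 and 3.59 in Ring1a/b 2KO and 1.56 and 3.32 in Ring1 Control. Its reads cannot be set apart from those of Snurf, which shares its transcripts. Impact, a regulator of translation under amino acid shortage, had 601, 1092 and 1110 in Eed KO, against 1045, 743 and 1063 in Eed Control. It had 462 and 728 in Ring1a/b 2KO, against 406 and 550 in Ring1 Control. Zrsr1, a splicing factor gene inside an intron of Commd1, had 842, 963 and 1086 in Eed KO, against 1254, 925 and 1144 in Eed Control, and 299 and 360 in Ring1a/b 2KO, against 349 and 381 in Ring1 Control. Impact and Zrsr1 overlapped in both tables.

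In protein turnover, Ube3a, the ubiquitin ligase imprinted mainly in neurons, had 2812, 4013 and 3728 normalised counts in Eed KO, against 3645, 4484 and 3418 in Eed Control. It had 1390 and 1495 in Ring1a/b 2KO, against 1410 and 1783 in Ring1 Control. The groups overlapped in both tables, and limma gave -0.14 for each knockout. Usp29, a deubiquitinase gene that shares its promoter region with Peg3, had 50.1 and 84.3 in Ring1a/b 2KO, against 28.6 and 48.2 in Ring1 Control, without overlap (limma 0.79, SE 0.54, adjusted p = 0.657). In Eed KO it had 73.1, 91.3 and 140, against 156, 67.0 and 145 in Eed Control, with overlap.

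Of the trafficking, enzyme and structural members, Begain, a synaptic scaffold gene, had 66.8 and 44.8 normalised counts in Ring1a/b 2KO, against 21.4 and 16.6 in Ring1 Control. The groups did not overlap, and limma gave 1.49 on the log2 scale (SE 0.58; adjusted p = 0.433). In Eed KO it had 45.6, 36.3 and 84.4, against 23.4, 20.3 and 53.6 in Eed Control, with overlap. Sgce, the epsilon-sarcoglycan gene, had 49.4 and 23.3 in Ring1a/b 2KO, against 13.02 and 14.96 in Ring1 Control. Ppp1r9a, encoding the actin-binding protein neurabin, had 37.1 and 21.5 in Ring1a/b 2KO, against 6.25 and 15.0 in Ring1 Control. Neither of these pairs overlapped. In Eed KO, Sgce had 14.4, 30.1 and 48.1, against 25.3, 38.6 and 36.4 in Eed Control. Ppp1r9a had 19.2, 14.5 and 26.0 in Eed KO, against 28.2, 21.3 and 31.4 in Eed Control. Both overlapped there, and their limma values were negative in Eed KO (-0.24 and -0.44) and positive in Ring1a/b 2KO (1.23 and 1.44); no limma adjusted p was under 0.05.

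H13, the signal peptide peptidase, had 2156, 1419 and 1471 normalised counts in Eed KO, against 1371, 1263 and 1252 in Eed Control. It had 465 and 500 in Ring1a/b 2KO, against 410 and 464 in Ring1 Control. Neither pair of groups overlapped, yet the limma log2 fold changes were small, at 0.35 and 0.14. Commd1, a copper-handling gene, had 214 and 224 in Ring1a/b 2KO, against 127 and 206 in Ring1 Control, without overlap, and 1751, 938 and 677 in Eed KO, against 784, 1241 and 839 in Eed Control, with overlap. Copg2, a coat protein of transport vesicles, had 1938, 2508 and 1960 in Eed KO, against 1930, 2197 and 2212 in Eed Control. In the Ring1 table Copg2 had 835 and 805 in Ring1a/b 2KO, against 719 and 921 in Ring1 Control. Blcap, a small membrane protein gene, had 657, 553 and 640 in Eed KO, against 788, 637 and 561 in Eed Control, and 219 and 206 in Ring1a/b 2KO, against 161 and 261 in Ring1 Control. Both overlapped in each table, with limma values of 0.007 and 0.01 for Copg2 and -0.09 and 0.05 for Blcap in Eed KO and Ring1a/b 2KO. Copg2 shares exon sequence with Mest, and Commd1 with Zrsr1, on opposite strands; no source used here says whether counting used strand, and those pairs cannot be fully told apart.

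Over the whole list, 34 of 39 members passed the filter on low values in each table, and the other 5 in each were at a table mean under 5. In Eed KO these were Magel2, Peg10, Kcnq1, Asb4 and Tspan32, and in the Ring1 table Ndn, Magel2, Snrpn, Asb4 and Tspan32. Ndn and Peg10 had low and uneven counts: Ndn had 44.4, 1.04 and 26.0 in Eed KO, against 0, 5.07 and 1.01 in Eed Control. Peg10 had 27.6, 0 and 0.789 in Eed KO, against 0, 0 and 1.01 in Eed Control. No fold is given for such values.

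By limma 0 of 34 members had an adjusted p under 0.05 in Eed KO, where 0% of all 16122 genes did. The edgeR test called 0% as well, with 4.63% of its genes at an unadjusted p under 0.05. At an unadjusted limma p under 0.05, 3 of 34 members were higher in Eed KO (Igf2, Plagl1 and Cd81) and 0 lower, against 3.4% of all genes higher and 1.33% lower. Of 36 members tested in the authors' deposited table, 1 was called higher, against 0.707% of all genes, and 0 lower, against 0.0539%. Groups failed to overlap with Eed KO higher for 5 of 34 members (14.7%), against 5.06% of all genes, and for 0 with Eed KO lower, against 4.15%. The 5 were Igf2, Plagl1, Snrpn, H13 and Cd81.

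For Ring1a/b 2KO limma called 0 of 34 members at an adjusted p under 0.05, against 0.0392% of all 15310 genes, and edgeR called 0 members and 0.0412% of genes, with 9.96% of genes at an unadjusted p under 0.05. At an unadjusted limma p under 0.05, 7 of 34 were higher (Igf2, Plagl1, Peg3, Grb10, Igf2r, Dlk1 and Begain) and 0 lower, against 5.62% of all genes higher and 4.81% lower. The authors' deposited table called 4 of 34 higher, against 1.18% of all genes, and 0 lower, against 0.31%. Of all genes called in both deposited tables, 0.313% of those tested, Igf2 was the only member. The groups failed to overlap with Ring1a/b 2KO higher for 14 of 34 members (41.2%), against 21.4% of all genes, and for 0 with Ring1a/b 2KO lower, against 21.5%. With 2 libraries a group, such separation was common among all genes. Phlda2 is among the 14 and passed the filter only through the knockout group. So did Kcnk9, Kcnq1, Klf14 and Peg10 among the 34, and these shares are a description only.

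Paternally and maternally expressed members were described side by side by their counts and medians. In Eed KO the median limma log2 fold change was 0.04 over 14 paternally expressed members, of which 7 were positive, and 0.13 over 16 maternally expressed members, of which 11 were positive. With 1 library left out the first median ran from -0.16 to 0.32, so its sign is not settled, and the second from 0.034 to 0.34. In Ring1a/b 2KO it was 0.79 over 13 paternally expressed members, of which 11 were positive, and 0.42 over 17 maternally expressed members, of which 14 were positive. Over all members tested the medians were 0.14 in Eed KO and 0.48 in Ring1a/b 2KO, against 0.008 and -0.0006 over all genes, of which 51.2% and 50% were positive. Members that passed the filter only through their knockout group had a higher knockout mean by that filter alone, and these were 3 in the Eed table (Klf14, Nap1l5 and Ndn) and 5 in the Ring1 table (Kcnk9, Kcnq1, Klf14, Peg10 and Phlda2). These counts and medians are therefore a description and support nothing, and at a table mean of at least 50 the Ring1a/b 2KO member median was 0.19. The called members came from both classes: Igf2, Plagl1 and Peg3 are paternally expressed and Grb10 maternally expressed. The 14 members without overlap in Ring1a/b 2KO were 6 paternally expressed, 7 maternally expressed (Phlda2 among them) and 1 other. No test was made between the classes, and the members that passed the filter are not the whole list.

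**Figure D3:**
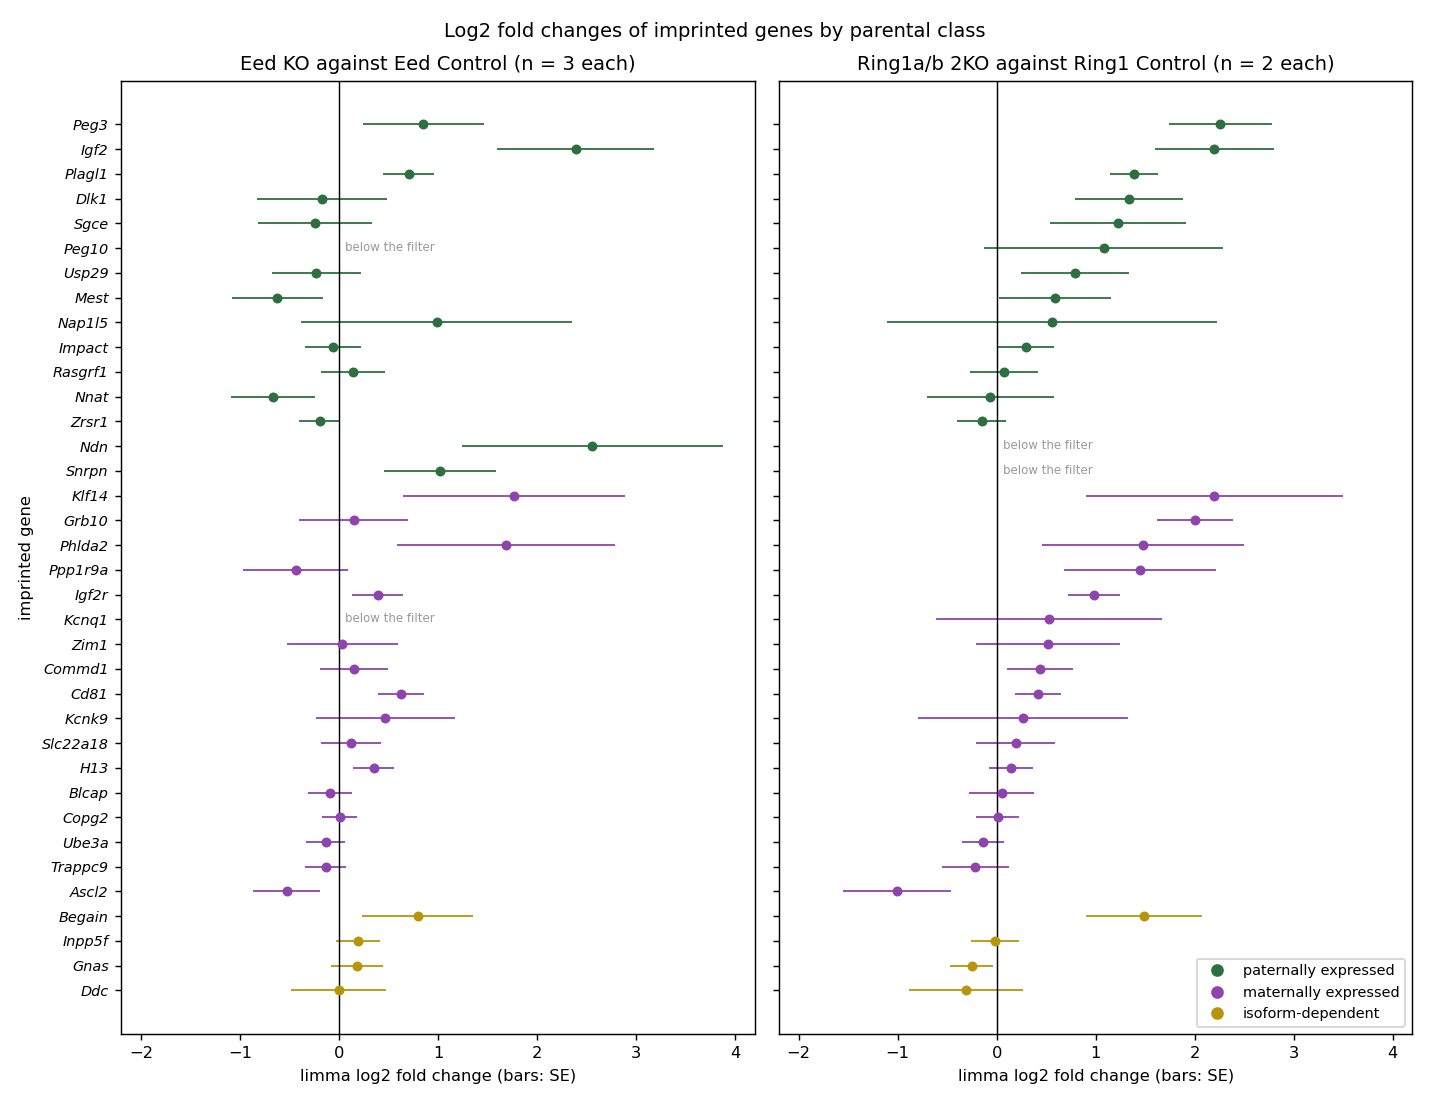
Limma log2 fold changes (points; bars are SE) of the members that passed the filter, for Eed KO against Eed Control (left, n = 3 each) and Ring1a/b 2KO against Ring1 Control (right, n = 2 each), coloured by parental class. In the right panel most points of both classes lie above 0, at medians of 0.79 for paternally and 0.42 for maternally expressed members. In the left panel they lie on both sides of 0. Kcnk9, Kcnq1, Klf14, Peg10 and Phlda2 (right) and Klf14, Nap1l5 and Ndn (left) passed the filter only through the knockout group. Signs and medians are therefore a description only.

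Signs were shared within some clusters and mixed within others. In the cluster on distal chromosome 7, Igf2 and Phlda2 at its ends had limma values above 1 in both knockouts, Cd81 and Slc22a18 between them had 0.12 to 0.62, and Ascl2 was negative in both. In the Peg3 cluster at the other end of the chromosome, all 3 members were positive in Ring1a/b 2KO, at 2.26 for Peg3, 0.79 for Usp29 and 0.52 for Zim1, and only the first had a call in the authors' deposited table. Next to Grb10 on chromosome 11, Ddc had -0.31 in Ring1a/b 2KO, against 2.00 for Grb10. In the Dlk1 cluster on chromosome 12 Begain and Dlk1 were both positive in Ring1a/b 2KO, at 1.49 and 1.34. All 3 members tested in the Peg10 cluster and all 3 in the Mest cluster were also positive in Ring1a/b 2KO. Of these, Peg10 and Klf14 passed the filter only through the knockout group, as did Phlda2, so their signs there support nothing. Copg2 was at 0.01 there, and 50% of all genes were positive. In Eed KO, where 51.2% of all genes were positive, both members tested in the Peg10 cluster and both in the Nnat cluster were negative. No member of the Dlk1, Peg10, Mest and Nnat clusters was called by limma or in the authors' deposited table.

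**Figure D4:**
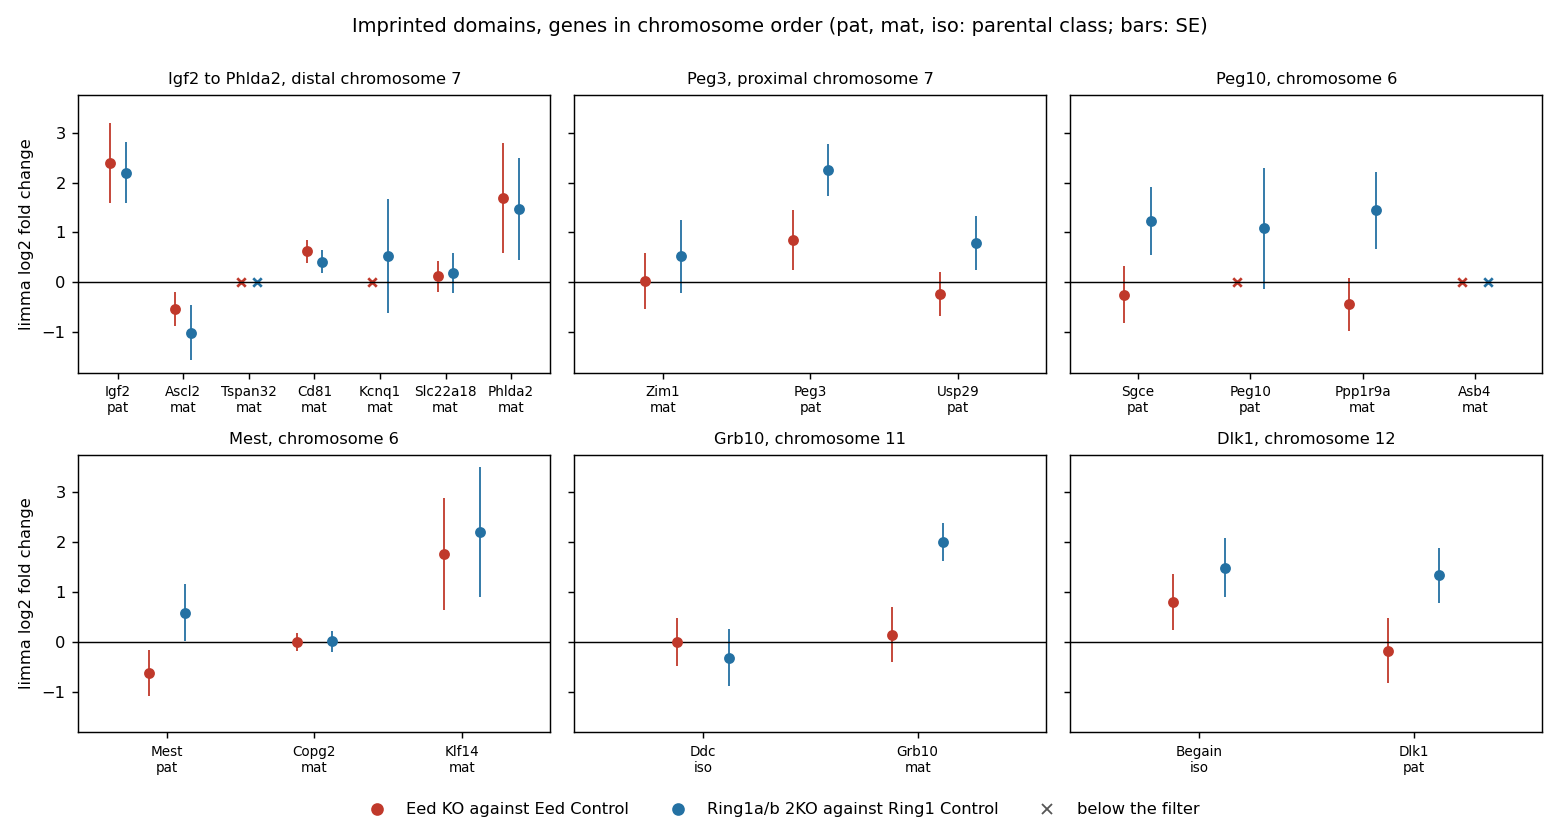
Limma log2 fold changes (points; bars are SE) of members in 6 imprinted clusters, in chromosome order, for Eed KO (red, left of each pair) and Ring1a/b 2KO (blue); crosses mark members under the filter in that table. Within a cluster the values differ, for example 2.00 for Grb10 and -0.31 for Ddc in Ring1a/b 2KO.

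The effects in the 2 knockouts were set against each other in 1 limma fit over 10 libraries. No member had a difference with an adjusted p under 0.05, against 0% of all 15096 genes, while 2 had an unadjusted p under 0.05 (Grb10 and Ppp1r9a), against 1.89% of genes. For Igf2 the log2 difference, Eed KO effect minus Ring1a/b 2KO effect, was 0.19 (SE 1.26), and its sign turned with 1 library left out. For Plagl1 it was -0.69 (SE 0.37; adjusted p = 1.00 by limma) and for Peg3 -1.41 (SE 0.93; adjusted p = 1.00 by limma). These standard errors are wide, so the fit does not show that the knockouts act alike on any member.

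Per kilobase of exon, the highest members in Eed Control were Cd81 (1202 normalised counts per kb), Gnas (923) and Ascl2 (504 ± 235), followed by Copg2 (413 ± 30.9) and Zrsr1 (247 ± 37.3). Ascl2 and Copg2 did not differ beyond their spread, nor did Cd81 and Gnas (± 235 and ± 241; SD, n = 3). Blcap (218), Ube3a (187), Impact (185), Slc22a18 (179.6) and Commd1 (161) came next, each within the spread of its neighbours. Igf2 was 23rd there, at 7.71 ± 3.20 per kb. In Ring1 Control the order began with Cd81 (344) and Gnas (301), then Copg2 (160.1), and Igf2 came 4th at 109.5 ± 26.8 per kb (SD, n = 2), level with Ascl2 (107.8).

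Some markers of other cell types differed between the groups. Of the Merkel cell markers, 6 on the list and 5 in each table, the summed normalised counts were 56.0 to 323 in Eed KO, against 11.2 to 15.2 in Eed Control, and 141 to 174 in Ring1a/b 2KO, against 8.33 to 18.3 in Ring1 Control. The authors' deposited table called Isl1 higher in both knockouts and Krt18 higher in Ring1a/b 2KO; Sox2 was at 0 in all control libraries. Krt20, the other defining keratin, averaged 1.06 ± 1.22 in Eed KO, against 1.35 ± 2.34 in Eed Control (SD, n = 3 each), and 0.309 ± 0.437 in Ring1a/b 2KO, against 5.25 ± 6.68 in Ring1 Control (SD, n = 2 each). Isl1 made up much of the sums, averaging 113 in Eed KO, against 4.69 in Eed Control, and 85.7 in Ring1a/b 2KO, against 3.53 in Ring1 Control. Eed KO replicate 1, the library with the most Igf2, also had the highest Merkel marker sum. That library held the highest value for 28.4% of all genes in the Eed table, against 9.92% to 19.9% for the other Eed libraries. Its high values were therefore not particular to these genes. Hair follicle marker sums overlapped in the Eed table, at 9002 to 14194 in Eed KO, against 5522 to 10423 in Eed Control. They were 3111 to 5977 in Ring1a/b 2KO, against 2208 to 2234 in Ring1 Control. Krt79 and Sox9 made up most of these sums and were called in neither comparison. They averaged 5389 and 4429 in Eed KO, against 3994 and 2805 in Eed Control, and 2318 and 1430 in Ring1a/b 2KO, against 1003 and 981 in Ring1 Control. Krt27 was called higher in Eed KO, and Lhx2, Lgr5 and Cd34 in Ring1a/b 2KO, in the authors' deposited table. Schwann cell and neuronal sums were 389 to 950 in Eed KO, against 278 to 508 in Eed Control, and 502 to 930.2 in Ring1a/b 2KO, against 117 to 203 in Ring1 Control. Tubb3 was called higher in Eed KO and Ncam1 in Ring1a/b 2KO in the authors' deposited table. Positive limma values in Eed KO were found for 4 of 4 Merkel, 9 of 9 hair follicle and 3 of 4 Schwann cell and neuronal markers tested. The same was true in Ring1a/b 2KO for 2 of 2, 6 of 8 and 3 of 4 of these. Over all genes 51.2% were positive in Eed KO and 50% in Ring1a/b 2KO. All Merkel markers tested, Krt27 in both tables and Tubb3 in Eed KO had control means under 5. They passed the filter only through the knockout group, so these sign counts are a description and support nothing.

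Melanocyte sums were 558 to 966 in Eed KO, against 713 to 792 in Eed Control, and 353 to 658 in Ring1a/b 2KO, against 241 to 311 in Ring1 Control. The authors' deposited table called Tyrp1 higher in Ring1a/b 2KO (adjusted p = 3.48e-05), where it averaged 82.0, against 0 in both Ring1 Control libraries. It called Mlana higher in Eed KO (adjusted p = 0.00168 in the authors' deposited table), where it averaged 32.5, against 0 in all Eed Control libraries. Positive limma values were found for 3 of 6 melanocyte markers tested in Eed KO and 6 of 7 in Ring1a/b 2KO. Over all genes 51.2% and 50% were positive. Mlana and Tyrp1 in both tables, and Kit in the Ring1 table, passed the filter only through the knockout group. Fibroblast sums overlapped, at 4755 to 8074 in Eed KO, against 4144 to 6287 in Eed Control. They also overlapped at 1216 to 1278 in Ring1a/b 2KO, against 1122 to 1372 in Ring1 Control. Thy1, also on the T cell list, made up most of these sums. It averaged 5423 in Eed KO, 4599 in Eed Control, 887 in Ring1a/b 2KO and 1124 in Ring1 Control. Limma values were positive for 5 of 6 fibroblast markers tested in Eed KO and 4 of 5 in Ring1a/b 2KO. Fbln1 was called higher in Ring1a/b 2KO in the authors' deposited table. Among differentiated keratinocyte markers Krt1 was called higher and Lor lower in Ring1a/b 2KO, while no endothelial, myeloid, T cell, muscle or adipocyte marker was called in the authors' deposited table. Basal keratinocyte sums were 242988 to 288848 in Ring1a/b 2KO, against 277197 to 351340 in Ring1 Control. Limma values were negative for 7 of 9 basal markers in Ring1a/b 2KO and 4 of 9 in Eed KO. At an unadjusted limma p under 0.05, 4 of 9 were lower in Ring1a/b 2KO, against 4.81% of all genes. No basal marker was called by limma or in the authors' deposited table. The part of all these cell type markers in the values of Igf2, Plagl1, Peg3 and Grb10 was not tested.

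Genes that maintain imprints, such as Dnmt1, Uhrf1, Trim28 and Ctcf, formed a list of 24, of which 23 were tested by limma in each table. None of them was called by limma or in the authors' deposited table, and 12 of 23 were positive in each comparison. Their median limma log2 fold changes were 0.02 in Eed KO and 0.007 in Ring1a/b 2KO, and single genes lay far from these. Zfp57 had 29.4 ± 6.61 normalised counts in Ring1a/b 2KO, against 3.22 ± 0.14 in Ring1 Control (SD, n = 2 each; limma log2 fold change 2.83, adjusted p = 0.331), and 6.04 ± 4.33 in Eed KO, against 13.1 ± 20.2 in Eed Control (SD, n = 3 each). Dnmt3l had 62.4 ± 101 in Eed KO, where 1 library held nearly all of it, against 2.97 ± 1.93 in Eed Control (SD, n = 3 each; limma log2 fold change 2.17, adjusted p = 0.989). Both genes were chosen after their values were seen. Dnmt3l in both tables and Zfp57 in the Ring1 table had control means under 5. They passed the filter there only through the knockout group, which favours positive limma values. The sign counts and medians of this list are therefore a description and support nothing.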

How the data were processed

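The submitters' processing notes name kallisto 0.42.5, DESeq2 3.11 and the mm10 (GRCm38) build. The per-library values in the authors' deposited tables are normalised counts, a signal unit; 100% of them were whole multiples of 1 step per library within 1e-06, which gave the read totals. The log2 fold changes, p-values and test scores in the authors' deposited tables are the authors' own.

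Values were tested as log2(value + 1), which understates changes of low genes, in limma 3.58.1 (trend and robust) where the table mean was at least 5; calls needed a Benjamini-Hochberg adjusted p under 0.05 over all genes. On recovered reads, an edgeR 4.0.16 quasi-likelihood test, added after seeing the data, called 0 Eed KO and 6 Ring1a/b 2KO genes; DESeq2 1.42.0 was the other count test. The methods were also run on simulated counts with the same dispersion for all genes and changes planted only at a mean of at least 50. Those runs do not cover low members or members as variable as Igf2 in Eed KO. Positions and exon lengths are from GENCODE M21, matched for 18495 and 18339 identifiers without version.

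Members and gene lists were chosen with earlier results of these data known. Every library's value is given for members with an unadjusted limma p or an authors' adjusted p under 0.05, with no overlap between groups, or among the 10 highest per kb in Eed Control; Ndn, Peg10 and Snrpn in the Ring1 table were added as low-count examples. Other settings are in the closing section.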

Additional observations from a re-analysis of the deposited data

How the results depend on the processing

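Other settings were other filters, thresholds, pseudocounts and normalizations, DESeq2, the authors' deposited calls, 1 fit over 10 libraries, a replicate block, other parental classes, and each library left out; DESeq2 without each library or with the block was added after seeing the data. Of the alternative values for counts of calls and for medians, 137 stayed close to the reported value and 29 moved; the cause was not tested. Among single members 382 kept direction and side of the threshold, 14 gained and 13 lost a call with the same direction, and 12 reversed.

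Members called in Eed KO numbered 1 by DESeq2 and 1 in the authors' deposited table, against 0 by limma; in Ring1a/b 2KO they numbered 4 and 4, and 0 to 4 by limma with a library left out. The 4 came without Ring1a/b 2KO replicate 1, where 3.7% of all genes were called and 1 knockout library was left. Calls by DESeq2 with a library left out ran from 0 to 2 in Eed KO and from 1 to 4 in Ring1a/b 2KO. The Eed KO member median was 0.056 with quantile normalization and ran from 0.11 to 0.33 with a library left out, and that of maternally expressed members from 0.034 to 0.34. That of paternally expressed members ran from -0.16 to 0.32.
In Ring1a/b 2KO the member median was 0.19 at a mean of at least 50 and 0.15 to 0.66 with a library left out (0.15 without Ring1 Control replicate 1). The paternally expressed median ran from 0.35 to 1.32. The maternally expressed median was 0.27 without a filter, 0.14 at a mean of at least 50, 0.25 with a pseudocount of 5 and 0.19 with quantile normalization. It was 0.13 to 0.40 with a library left out. With Ube3a, H13, Blcap, Trappc9, Kcnk9, Commd1, Copg2, Cd81 and Tspan32 left out it was 0.98. The members then left included Kcnq1, Klf14 and Phlda2, which passed the filter only through the knockout group, so that value supports nothing.

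With a library left out, Dlk1 in Eed KO ran from -0.61 to 0.20, Grb10 in Eed KO from -0.26 to 0.55, the Cd81 difference between knockouts from -0.076 to 0.49 and the Igf2 difference from -0.80 to 0.96, so their signs are not settled. The Igf2 difference was -0.24 with quantile normalization.

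Replicate numbers were not shown to pair samples: deviations of same-numbered Eed libraries correlated at -0.20, 0.16 and 0.31, and the Ring1 groups have only 2 pairs, at 0.23. With a replicate block limma called 0 members in either knockout and 36 genes in Ring1a/b 2KO, against 6 without it. DESeq2 with the block called 1 member in Eed KO (Igf2) and 3 in Ring1a/b 2KO (Grb10, Peg3 and Plagl1), where Igf2 had a log2 fold change of 2.20 and a DESeq2 adjusted p of 0.271.
Depth limits low members most, since 1 read in Ring1a/b 2KO replicate 2 was worth 1.79 normalised counts.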

Other observations

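A second list of 32 other imprinted genes, 31 of them in each table, had calls in both comparisons in the authors' deposited table, 2 higher of 26 tested in Eed KO, against 0.707% of all genes, and 1 higher and 1 lower of 25 tested in Ring1a/b 2KO, against 1.18% and 0.31% of all genes. In Eed KO the authors' deposited table called Sfmbt2, a Polycomb-group gene (98.6 ± 42.6 normalised counts in Eed KO and 6.25 ± 5.65 in Eed Control; SD, n = 3 each), and Dcn, which encodes the matrix proteoglycan decorin (433 ± 383 and 42.9 ± 28.6). Their adjusted p in the authors' deposited table were 4.29e-05 and 0.000238, and limma called neither. In Ring1a/b 2KO the authors' deposited table called Zdbf2 higher (216 ± 84.7 in Ring1a/b 2KO and 26.3 ± 13.7 in Ring1 Control; SD, n = 2 each; adjusted p = 6.37e-05) and Cobl, an actin nucleator gene, lower (526 ± 203 and 1524 ± 32.9; adjusted p = 0.00122), and limma called neither (adjusted p = 0.131 and 0.140). Median limma log2 fold changes were 0.11 over 24 genes tested in Eed KO and 0.17 over 25 in Ring1a/b 2KO.

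Scaled to each library's recovered reads, Igf2 had 23.0, 4.503 and 2.48 CPM in Eed KO, against 1.79, 1.20 and 0.735 in Eed Control, and 136 and 432 in Ring1a/b 2KO, against 56.1 and 43.6 in Ring1 Control. No comparison is made between the 2 tables.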
